A study of Mus musculus with 168 samples.

Results

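Mir210 encodes the microRNA best known for its induction by low oxygen, and its level was followed here in the cortex of Huntington's disease knock-in mice. It was chosen by values of these data: it passed an adjusted p of 0.05 in Q175 against control cortex at 6 and at 10 months, so those contrasts are given as a description with no test. It is 1 of 1228 named transcripts among the 1626 transcripts of the count table, and 1 of the 329 microRNAs of the study's own list that have a row there. MicroRNA was sequenced in 168 cortex libraries, 8 mice (4 female and 4 male) for each of 21 groups of genotype and age. The genotypes were WT and Q20, Q80, Q92, Q111, Q140 and Q175, and the ages were 2, 6 and 10 months.

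The labels give the strain as C57BL/6, and by the study's methods heterozygous males were bred to C57BL/6J females. Knock-in mice were heterozygous: they carried 1 mouse Htt allele and 1 engineered allele that holds human HTT exon 1 with the named CAG length, expressed from the mouse's own Htt promoter. Q20 has a CAG length in the normal human range, and the Q175 line arose from the Q140 line when its repeat expanded spontaneously. The study's methods describe WT mice as littermates of the Q20 line, and list none for 6-month cortex. The controls at 2 and 10 months were Q20 and WT together (16 mice), and at 6 months Q20 alone (8 mice), because the 6-month WT libraries stood apart and are described on their own. The labels give the library name, from which the sequencing lane was read, and 11 of the 6-month libraries carry the code V in place of LB. For 2 libraries the labelled sex differed from the cage's, which was used in its place.

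miR-210 is a short RNA that guides Argonaute to messenger RNAs and lowers their output. Its gene is a direct target of the hypoxia-inducible factors (HIF), and mRNAs of mitochondrial electron transport and iron-sulfur cluster assembly, Iscu and Ndufa4 among them, are known targets, as are Efna3 and Gpd1l. It is thereby known as a link between oxygen supply and oxidative metabolism, and in brain it has been studied mostly after ischemia. No messenger RNA was measured in these libraries, so targets are not described.

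The hairpin lies on chromosome 7 of GRCm38, minus strand, at chr7:141221384-141221493 (transcript ENSMUST00000083617 in GENCODE, 110 bases). No protein-coding gene overlaps it. The nearest are Rassf7, whose annotated end is 2726 bases away, and Phrf1, 7291 bases away on the other side. The mature arms are shown because the seed, bases 2 to 8 (in capitals), sets which messenger RNAs a microRNA can pair with, and the hairpin because the deposited count covers it as a whole (RefSeq, GRCm38.p6, 5′ to 3′, the 5p and then the 3p arm in capitals).
mmu-miR-210-5p: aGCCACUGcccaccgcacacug
mmu-miR-210-3p: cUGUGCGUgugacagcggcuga
Mir210 hairpin: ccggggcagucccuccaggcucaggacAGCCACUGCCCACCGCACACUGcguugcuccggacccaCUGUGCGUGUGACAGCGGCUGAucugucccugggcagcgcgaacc
The 5p arm takes bases 28 to 49 of the hairpin and the 3p arm bases 66 to 87. Among the 1738 mature mouse sequences searched, Mir210's own included, neither seed occurs at bases 2 to 8 of another microRNA. No other listed microRNA thus shares a seed with Mir210. All 168 deposited values of Mir210 were whole numbers, whereas 48.06% of all values above 0 in the table were not. The count does not separate the arms.

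Mir210 was measured at moderate depth. Its count ranged from 88 to 1191 reads per library with a median of 307.5, out of totals of 2041741 to 11646287 reads (median 4810487). Levels are given below as CPM, the count relative to library size, scaled by the trimmed mean of M values (TMM) and not corrected for length, so they serve to compare 1 gene between libraries. Over all libraries Mir210 had a mean of 65.4 CPM. The typical spread between mice of a group was 0.18 on the log2 scale, against a median of 0.14 over the 220 microRNAs with a mean of at least 10 CPM. Counting error alone would give a coefficient of variation of about 5.1 to 8.6%, and the observed one ranged from 7.2 to 25.9% between groups. Neuronal microRNAs (Mir124a and Mir128 loci) summed to 42109 to 69280 CPM per library, and the liver microRNA Mir122 had a mean of 3.13 CPM. In such bulk tissue, fewer cells of a type and less RNA per cell cannot be told apart.

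At 2 months Mir210 spanned nearly the same range in Q175 and control cortex. Control mice had 43.4 CPM at the lowest, 58.0 at the median and 71.5 at the highest, and Q175 mice had 43.6, 60.1 and 71.7 CPM. The groups overlapped almost entirely. The estimated log2 fold change was 0.01 (standard error 0.08), with an interval of -0.15 to 0.17 and an adjusted p of 0.975 (edgeR quasi-likelihood test with Benjamini-Hochberg adjustment, as in all tests below). In this comparison 0% of 327 microRNAs passed, 19 had an unadjusted p under 0.05, and DESeq2 called 0.

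At 6 months Mir210 was higher in Q175 than in Q20 cortex. The 8 Q20 mice had 56.1, 60.8, 62.6, 64.9, 66.5, 67.9, 72.5 and 79.6 CPM, and the 8 Q175 mice had 71.3, 74.6, 78.7, 78.7, 82.1, 83.2, 83.9 and 97.4 CPM. Every Q175 mouse was above the Q20 median and 4 of the 8 were above the highest Q20 mouse, so the groups overlapped between 71.3 and 79.6 CPM. Means were 81.3 ± 7.82 CPM in Q175 and 66.4 ± 7.24 CPM in Q20 (SD, n = 8 each). The log2 fold change adjusted for sex and library code was 0.32 (standard error 0.08), a 1.24-fold difference. Without library code as a covariate it was 0.29 (standard error 0.07). No Q20 library carried the code V, so the value adjusted for code rests mainly on the 5 Q175 libraries coded LB. This contrast chose Mir210, and 2.77% of 325 microRNAs passed in it (9 in all, 8 up and 1 down). The highest mouse was also the most deeply sequenced library of the series (1191 reads of Mir210), and without it the log2 fold change was 0.24 (standard error 0.08), an alternative added after the data were seen.

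At 10 months the same direction was seen. Control mice had 57.5 CPM at the lowest, 64.7 at the median and 82.2 at the highest. The 8 Q175 mice had 63.7, 69.4, 79.5, 80.8, 80.9, 85.8, 92.6 and 100.5 CPM. Of these, 7 were above the control median and 3 above the highest control, while the lowest was below the control median. Means were 81.7 ± 11.8 CPM in Q175 (SD, n = 8) and 66.9 ± 6.86 CPM in controls (SD, n = 16). The log2 fold change was 0.27 (standard error 0.07), a 1.21-fold difference, again in a contrast that chose Mir210 and in which 12.2% of 327 microRNAs passed (40, of which 18 up and 22 down).

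**Figure D1:**
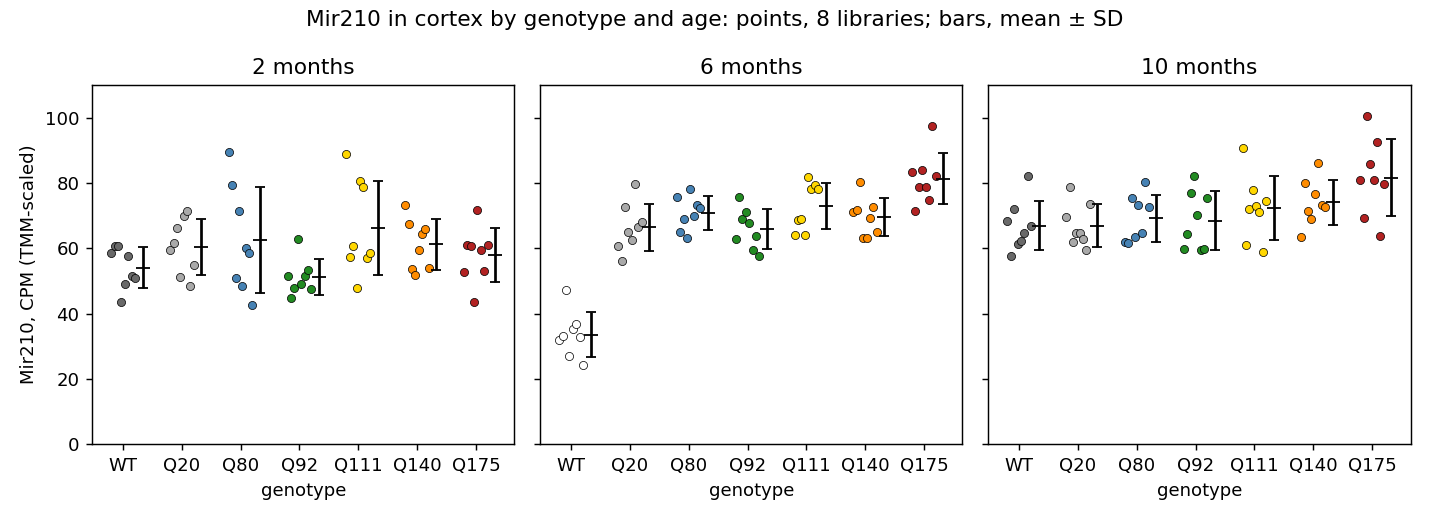
Mir210 level (vertical axis, TMM-scaled CPM from 0) in each of the 168 libraries by genotype (horizontal axis) and age (panels), with the mean and SD of the 8 mice beside them. Q175 mice reach from 71.3 to 97.4 CPM at 6 months and from 63.7 to 100.5 CPM at 10 months, and the 6-month WT mice (open points) lie between 24.2 and 47.2 CPM, below the other groups.

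The shorter alleles asked whether the difference in Q175 had a counterpart at lower CAG length, in mice the choice of Mir210 did not use, although their comparisons share the control libraries with the Q175 contrasts and with each other. None of the 4 lines passed the threshold at any age. At 10 months the means of Q80, Q92, Q111 and Q140 were 69.2 ± 7.20, 68.5 ± 8.96, 72.4 ± 9.85 and 74.1 ± 6.90 CPM (SD, n = 8 each), with log2 fold changes of 0.04, 0.02, 0.11 and 0.14. The order of the means followed CAG length in Q92, Q111 and Q140 and not in Q80. With lane as a covariate the log2 fold changes were 0.09, 0.03, 0.19 and 0.17, so that Q111 stood above Q140, and none passed. Q140 had 63.5 CPM at the lowest, 73.0 at the median and 86.0 at the highest, with 7 of 8 mice above the control median and 1 above the highest control. Its log2 fold change had a standard error of 0.06, an unadjusted p of 0.0339 and an adjusted p of 0.383 (rank 28 of 327 microRNAs), while 0% of microRNAs passed in that comparison. In the 4 lines at this age 4 to 35 microRNAs had an unadjusted p under 0.05, 0 passed, and DESeq2 called 0 or 1. For Q80, Q92 and Q111 at 10 months the adjusted p was between 0.870 and 0.997, with intervals of -0.09 to 0.17, -0.11 to 0.155 and -0.03 to 0.24.

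At 6 months the same 4 lines differed from Q20 by log2 fold changes of 0.06 (Q80), -0.02 (Q92), 0.05 (Q111) and 0.05 (Q140), with standard errors of 0.07 to 0.09 and adjusted p values of 0.847 to 0.980. Their means were 70.8 ± 5.11, 65.9 ± 6.11, 72.9 ± 7.15 and 69.5 ± 5.79 CPM (SD, n = 8 each). Library code was a covariate and no Q20 library was coded V. The log2 fold changes of Q80, Q111 and Q140 therefore rest mainly on their 6, 4 and 6 libraries coded LB, which in Q111 are all female. Without library code they were 0.08, 0.10 and 0.06, and none passed (adjusted p 0.793, 0.602 and 0.795). In Q92 1 microRNA passed (0.311% of 322), which was not Mir210, and in the other lines 0% did, with 10 to 24 at an unadjusted p under 0.05 and 0 to 5 called by DESeq2. The intervals ended at 0.20 (Q80), 0.12 (Q92), 0.22 (Q111) and 0.21 (Q140). In Q175 the interval ran from 0.15 to 0.48, but it is not corrected for the choice of Mir210 by that contrast and cannot be set against the others. No test of the difference between these lines and Q175 was made, because the Q175 value chose the gene.

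At 2 months the lines spread more widely. Q111 averaged 66.2 ± 14.5 CPM and Q80 62.6 ± 16.2 CPM, against 57.2 ± 7.93 CPM in the 16 controls, and Q92 averaged 51.1 ± 5.51 CPM. Q140 lay between them, at 61.2 ± 7.79 CPM. The log2 fold change was 0.21 in Q111 (standard error 0.10, unadjusted p 0.0466, adjusted p 0.825), 0.14 in Q80 (adjusted p 0.647), 0.11 in Q140 (adjusted p 0.996) and -0.17 in Q92 (standard error 0.08, unadjusted p 0.0391, adjusted p 0.2996). None passed, and 0% of microRNAs did in each of these 4 comparisons, in which 8 to 48 had an unadjusted p under 0.05 and DESeq2 called 0 to 9.

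The high values of Q111 and Q80 at 2 months moved with the sequencing lane. In Q111 the 3 libraries of lane 1 had 78.7, 80.7 and 88.8 CPM and the other 5 had 47.9 to 60.8 CPM. In Q80 the 2 libraries of lane 1 had 71.3 and 89.5 CPM and 1 of lane 2 had 79.3 CPM. The highest Q175 library of that age, at 71.7 CPM, was also of lane 1. Lane 1 was not high in every genotype: its 6 controls averaged 59.5 ± 9.84 CPM and its 3 Q92 libraries 50.6 ± 1.48 CPM. Without the lane 1 libraries, an alternative added after the data were seen, the log2 fold change of Q111 against controls was 0.02 (standard error 0.09), against 0.21 with them. That alternative leaves out the 3 highest Q111 libraries. With lane as a covariate and all libraries kept, Q111 was at 0.21 (standard error 0.08) and Q80 at 0.14, as without lane.

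CAG length was next taken as a number, with 7 for WT, and Q175 left out because its contrasts chose Mir210. The control libraries of those contrasts stayed in as the low end of CAG length, so the trend is not free of the choice. At 10 months Mir210 increased by 0.11 on the log2 scale per 100 CAG (standard error 0.05, 48 libraries), with an unadjusted p of 0.0270 and an adjusted p of 0.421, and so did not pass. In that fit 0.305% of 328 microRNAs passed, 1 in all, which was not Mir210. At 6 months the slope was 0.02 (adjusted p 0.906, standard error 0.05) and at 2 months 0.10 (adjusted p 0.969, standard error 0.08). With Q175 included, the 2-month slope was 0.05 (standard error 0.06, 56 libraries, adjusted p 0.999). In each of these 3 fits 0% of microRNAs passed, 7 to 28 had an unadjusted p under 0.05, and DESeq2 called 1 at 6 months and 0 in the others.

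**Figure D2:**
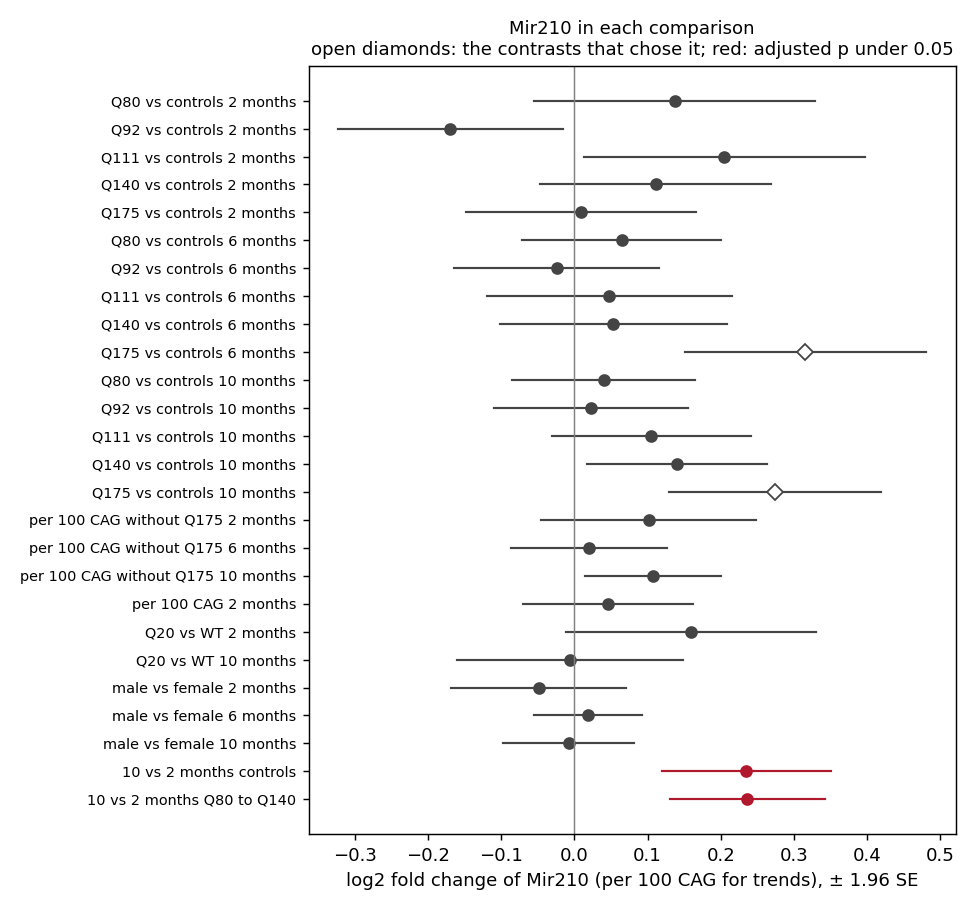
Log2 fold change of Mir210 (horizontal axis, with its 95% interval) in each comparison (vertical axis), with slopes given per 100 CAG. The 2 comparisons of 10 with 2 months (red) passed the adjusted threshold with 0.24 each, no comparison of a line with fewer CAG than Q175 did, and the open diamonds mark the Q175 contrasts that chose the gene.

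Lane and library code were checked within each age. At 10 months Q175 averaged more than controls in each lane: 77.0 against 66.9 CPM in lane 6 (3 and 7 libraries), 84.1 against 61.5 CPM in lane 7 (4 and 4) and 85.8 against 71.2 CPM in lane 8 (1 and 5). With lane as a covariate the log2 fold change was 0.30, against 0.27 without. Q140 averaged 75.1 ± 7.73 CPM against 61.5 ± 3.63 CPM in lane 7 (6 and 4 libraries), where the libraries overlapped at 63.5 to 64.6 CPM. In lane 8 its 2 libraries averaged 70.8 CPM against 71.2 CPM in 5 controls.

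At 6 months the Q20 libraries were of lanes 3 and 4, and Q175 libraries were of lanes 1 and 2 or of code V, which names no lane, so lane and genotype cannot be told apart in that contrast. Q175 did share lanes 1 and 2 with Q80, where 5 Q175 libraries had 74.6 to 97.4 CPM (mean 83.4) and 6 Q80 libraries 63.2 to 75.8 CPM (mean 69.8), overlapping in 1 library of each. In lane 1 the 4 Q175 libraries averaged 83.7 CPM and the 1 Q80 library had 63.2 CPM. In lane 2 the 1 Q175 library had 82.1 CPM and the 5 Q80 libraries averaged 71.2 CPM. Lane and genotype are thus hardly separated there either. Mir210 also differed by library code, but code and genotype were not balanced. Over the 48 knock-in libraries those coded V averaged 76.3 ± 4.92 CPM (n = 11) and those coded LB 69.6 ± 8.29 CPM (n = 37). No Q20 or Q92 library was coded V. Within Q80 the V and LB libraries averaged 73.5 and 69.8 CPM (2 and 6), and within Q140 70.9 and 69.1 CPM (2 and 6). All 4 Q111 males were coded V, at 79.3 ± 1.69 CPM, and all 4 Q111 females LB, at 66.5 ± 2.73 CPM, so that sex and code cannot be told apart in that line. In Q175 the order was the other way, with 77.8 CPM in 3 V libraries and 83.4 CPM in 5 LB libraries. With LB libraries alone the log2 fold change of Q175 against Q20 was 0.30. That is not a separate check, because the fit with code as a covariate already rests mainly on these LB libraries.

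**Figure D3:**
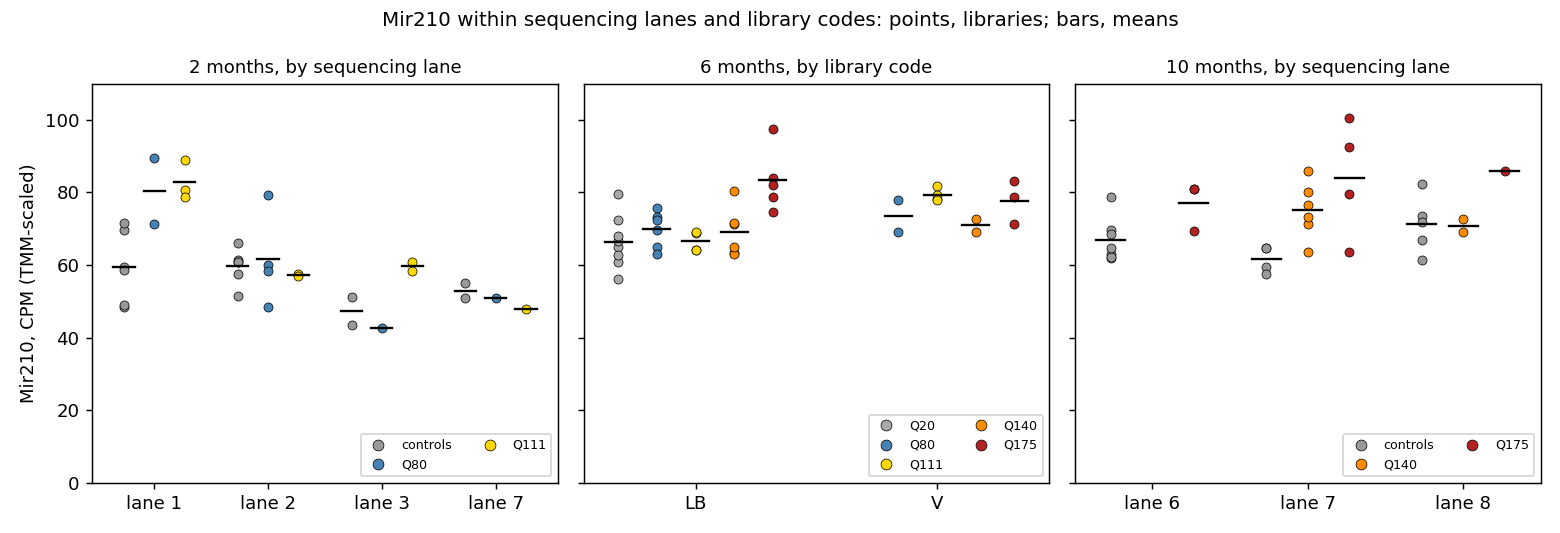
Mir210 level (vertical axis, TMM-scaled CPM from 0) by sequencing lane at 2 and 10 months and by library code at 6 months, for the groups named in each panel, each point a library and each bar a mean. Q111 and Q80 are high in lane 1 at 2 months (means 82.8 and 80.4 CPM), Q111 splits by code at 6 months (66.5 and 79.3 CPM), and Q175 averages more than controls in each of the 3 lanes at 10 months.

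The 6-month WT libraries held far less Mir210 than the others. Their 8 values were 24.2, 26.9, 32.0, 32.9, 33.2, 35.2, 37.0 and 47.2 CPM, with a mean of 33.6 ± 6.93 CPM, and all 8 lay below the lowest of the other libraries of that age (56.1 CPM). Against them the 8 Q20 mice of the same age were higher by 0.95 on the log2 scale (standard error 0.11, adjusted p 2.73e-06), a 1.93-fold difference, in a comparison added after the data were seen in which 55% of 322 microRNAs passed. By size Mir210 ranked 57 there. The difference between Q20 and WT did not pass at 2 months (54.0 ± 6.32 and 60.4 ± 8.48 CPM, log2 fold change 0.16, adjusted p 0.851, standard error 0.09) or at 10 months (66.9 ± 7.62 and 66.9 ± 6.55 CPM, log2 fold change -0.01, adjusted p 0.999, standard error 0.08), with 0% of microRNAs passing at either of these ages. At those ages 14 and 12 microRNAs had an unadjusted p under 0.05 and DESeq2 called 0.

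Other microRNAs moved in the same WT libraries. The erythrocyte microRNAs Mir451a, Mir144 and Mir486 summed to 6395 ± 1635 CPM there and 3596 ± 209 CPM in Q20, and Mir9 loci to 58851 ± 14809 and 33250 ± 2084 CPM. The oligodendrocyte microRNAs Mir219a-1, Mir219a-2 and Mir338 summed to 2417 ± 710 CPM and 3264 ± 256 CPM (SD, n = 8 each). Other sums were nearer in WT and Q20: neuronal 48970 ± 3472 and 52082 ± 2213 CPM, endothelial Mir126a 10053 ± 460 and 9745 ± 510 CPM. Smooth muscle microRNAs summed to 31117 ± 9939 and 28464 ± 1962 CPM, and choroid plexus ones to 3171 ± 179 and 3244 ± 1214 CPM. Mir223 was at 10.4 and 9.65 CPM, and Mir122 at 7.14 and 1.48 CPM. All 8 WT libraries carried the lane number 3. It was also carried by 3 Q20 libraries (mean 71.3 CPM) and 3 Q111 libraries (mean 67.3 CPM) of that age. Each of the 3 Q111 libraries has the lane and LB number of a WT library, so the number cannot be taken as a shared lane. The WT library names have the form used at the other ages, unlike the other libraries of that age. Genotype and library set therefore cannot be told apart. The part of the library set and of the marker differences in the low Mir210 was not tested. With the WT libraries counted as controls at 6 months, the log2 fold change of Q175 would have been 0.69.

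Marker sums of other cell types are set beside the Q175 values, as means ± SD over 8 Q175, 8 Q20 (6 months) and 16 control mice (10 months), and were not tested. At 6 months erythrocyte microRNAs summed to 3735 ± 324 CPM in Q175 and 3596 ± 209 CPM in Q20, and the endothelial Mir126a to 10060 ± 467 and 9745 ± 510 CPM. The smooth muscle microRNAs Mir143 and Mir145a were lower in Q175, at 24559 ± 2401 CPM against 28464 ± 1962 CPM in Q20, and their part in the Mir210 difference was not tested. Oligodendrocyte microRNAs summed to 3385 ± 112 and 3264 ± 256 CPM. At 10 months smooth muscle microRNAs summed to 9841 ± 1671 CPM in Q175 and 10444 ± 2146 CPM in controls, and oligodendrocyte microRNAs to 4796 ± 174 and 4527 ± 408 CPM. At that age erythrocyte microRNAs summed to 2472 ± 187 CPM in Q175 and 2558 ± 209 CPM in controls, and Mir126a to 9392 ± 463 and 8620 ± 732 CPM. The choroid plexus microRNAs Mir204, Mir211 and Mir1298 stood apart: they reached 12194.5 CPM in a 10-month Q20 library and averaged 4890 ± 2465 CPM in the 16 controls of that age, against 2894 ± 212 CPM in Q175. Without the 6 controls highest in them, an alternative added after the data were seen, the log2 fold change of Mir210 in Q175 was 0.26, against 0.27 with them. Neuronal microRNAs averaged 50461 ± 3016 CPM in Q175 and 56045 ± 4051 CPM in controls at 10 months, and 47961 ± 912 and 52082 ± 2213 CPM at 6 months, and the part of that shift in Mir210 was not tested.

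Mir210 was higher at 10 than at 2 months in mice other than Q175. Over controls it rose from 57.2 ± 7.93 to 66.9 ± 6.86 CPM (SD, n = 16 each), a log2 fold change of 0.24 (adjusted p 0.00107, standard error 0.06). Over the 4 lines from Q80 to Q140 it rose by 0.24 as well (adjusted p 0.000129, standard error 0.05, 32 libraries at each age), and by 0.15 with library size alone as the scaling (adjusted p 0.0147, range over all alternatives 0.00012 to 0.0147). Marker sums also differed between the ages in controls: oligodendrocyte microRNAs went from 3415 ± 256 to 4527 ± 408 CPM, smooth muscle from 13990 ± 1687 to 10444 ± 2146 CPM and erythrocyte from 3301 ± 426 to 2558 ± 209 CPM, and their part in the change of Mir210 was not tested. Such calls were common: 49.4% of 328 microRNAs passed in the controls and 61.2% of 327 in the 4 lines, and Mir210 ranked 104 and 125 by p. The labels name a lane and no run, and the only lane number with libraries of both ages is 7, so age and sequencing run cannot be told apart.

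By genotype the 10-month mean over the 2-month mean was highest in Q175 (1.41) and then in Q92 (1.34), WT (1.24), Q140 (1.21), Q20 (1.11), Q80 (1.11) and Q111 (1.09). In each genotype 7 or 8 of the 8 mice at 10 months were above the 2-month median of that genotype. The ratio in Q175 is part of the pattern that chose Mir210 and was not tested. The 2-month means of Q111 and Q80 include the lane 1 libraries described above.

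Placed in 1 order, the 21 group means ran from 81.7 CPM in Q175 at 10 months and 81.3 CPM in Q175 at 6 months to 51.1 CPM in Q92 at 2 months and 33.6 CPM in WT at 6 months. Of the 20 gaps between neighbours in that order, 18 were smaller than the SD of either neighbour. The 2 larger gaps were those below Q175 at 6 months (7.20 CPM, next to Q140 at 10 months with 74.1 CPM) and above WT at 6 months (17.5 CPM).

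Sex was tested over all genotypes of an age. Males differed from females by log2 fold changes of -0.05 at 2 months, 0.02 at 6 months and -0.01 at 10 months, with standard errors of 0.06, 0.04 and 0.05 and adjusted p values of 0.907 to 0.975. In these fits 0.612% of 327, 0% of 327 and 0.305% of 328 microRNAs passed. At 6 months 32 had an unadjusted p under 0.05 and DESeq2 called 1. In Q175 the means of 4 females and 4 males were 79.3 and 83.2 CPM at 6 months and 84.1 and 79.2 CPM at 10 months, so neither sex was the higher one at both ages.

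The microRNAs whose group means went most closely with Mir210 were looked for over the 20 groups of genotype and age without the 6-month WT, among 219 others with a mean of at least 10 CPM. These are correlations of groups that share lanes and runs, given as a description. The highest were Mir219a-2, an oligodendrocyte microRNA (Pearson r = 0.83), Mir152 (0.79) and Mir195a, of the Mir15 and Mir16 seed family (0.76). Mir195a, whose levels also were higher in Q175, averaged 485 ± 31.3 CPM in Q175 and 429 ± 20.7 CPM in Q20 at 6 months, and 546 ± 85.6 and 444 ± 28.8 CPM at 10 months (SD, n = 8). Mir219a-2 differed mainly by age, from 439 CPM in Q20 at 2 months to 602 CPM at 10 months, with 618 CPM in Q175 at 10 months. The lowest were Mir296 (-0.80), at 49.1 CPM in Q20 at 2 months and 17.5 CPM at 10 months, and Mir212, a microRNA induced by neuronal activity (-0.74). Mir212 averaged 1196 ± 65.8 CPM in Q175 and 1501 ± 124 CPM in Q20 at 10 months. Over 160 single libraries centred on their age the correlations were much lower, at 0.19 for Mir219a-2, 0.12 for Mir152, 0.35 for Mir195a, -0.12 for Mir296 and -0.10 for Mir212. The highest of all 219 over single libraries was 0.58, for Mir666, which was looked up after its value was seen, and the lowest was -0.51.

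Other microRNAs linked to hypoxia were read from a list of 26, of which 18 are reported to be induced by low oxygen and 8 to target HIF or its regulators. Of these 13 and 6 were tested. Mir24-1 has no row, and Mir23b, Mir24-2, Mir27b, Mir322, Mir199a-1 and Mir199a-2 have a row but are not on the study's list. At 2 months none passed in Q175: 0 of 13 and 0 of 6, also by DESeq2, with 2 regulators, Mir200b and Mir429, at an unadjusted p under 0.05 with log2 fold changes of -2.12 and -2.22. The median log2 fold change was 0.02 in the induced microRNAs and 0.00 in the regulators, against 0.01 over all 327 tested.

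At 6 months 2 of the 13 induced microRNAs rose in Q175 and none fell, where 2.77% of all microRNAs passed. Mir181a-1, a microRNA abundant in brain and in lymphoid cells, averaged 5669 ± 387 CPM in Q175 and 4603 ± 168 CPM in Q20 (SD, n = 8), with a log2 fold change of 0.31 (standard error 0.06, adjusted p 0.00566). Mir26a-1, 1 of a pair of loci with the same mature microRNA, averaged 1870 ± 479 and 1429 ± 233 CPM, with 0.57 (standard error 0.13, adjusted p 0.0356). The call of Mir26a-1 was lost without the most deeply sequenced Q175 library and with another scaling (RLE), and its partner Mir26a-2, which takes most of the reads of that microRNA, had a log2 fold change of 0.02 (adjusted p 0.902). Reads that fit both loci could be split between them by the counting. None of the 6 regulators passed, of which 1, Mir20a, had an unadjusted p under 0.05. The medians were 0.11 in the induced microRNAs and 0.12 in the regulators, against 0.03 over all 325.

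At 10 months 2 of the 13 induced microRNAs and 2 of the 6 regulators rose in Q175, and none fell, where 12.2% of all microRNAs passed. The 2 induced ones share a mature sequence, whose reads the counting could split, and the 2 regulators share a cluster. The calls within each pair are therefore not independent. Mir181a-1 averaged 7778 ± 561 CPM in Q175 and 6549 ± 436 CPM in controls, with a log2 fold change of 0.23 (standard error 0.04, adjusted p 0.000358). Mir181a-2, its paralog with the same mature 5p sequence and the highest mean CPM of the list, averaged 116029 ± 5889 and 97435 ± 7423 CPM, with 0.24 (standard error 0.04, adjusted p 0.000596). Mir17 and Mir20a, of the cluster that is known for driving cell proliferation, had log2 fold changes of 0.24 (adjusted p 0.00284) and 0.23 (adjusted p 0.0333), and the call of Mir20a was lost without the 6 controls highest in choroid plexus microRNAs. Mir429, the regulator of highest mean CPM over all libraries, was at 77.0 ± 11.6 CPM in Q175 and 87.4 ± 26.1 CPM in controls (log2 fold change -0.20, adjusted p 0.415). It varied far more at 6 months, at 618 ± 704 CPM in Q175 and 949 ± 634 CPM in Q20 (adjusted p 0.803), and at 2 months, at 286 ± 585 and 1017 ± 872 CPM. The medians were 0.09 in the induced microRNAs and -0.03 in the regulators, against -0.01 over all 327.

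No tested member of the list passed in the downward direction at 6 or 10 months. Over all microRNAs 1 of 325 and 22 of 327 did. None of the tested members had a downward change with an unadjusted p under 0.05 at those ages, and the untested members are not covered by this. The other 10 tested induced microRNAs, from the Mir103, Mir181b, Mir23, Mir26 and Mir27 families with Mir107 and Mir155, passed at no age. Their log2 fold changes were -0.09 to 0.31 at 6 months and -0.03 to 0.18 at 10 months. The list was drawn up with results of these data known, and it gives no independent evidence of its direction. Mir210 is not counted in it.

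**Figure D4:**
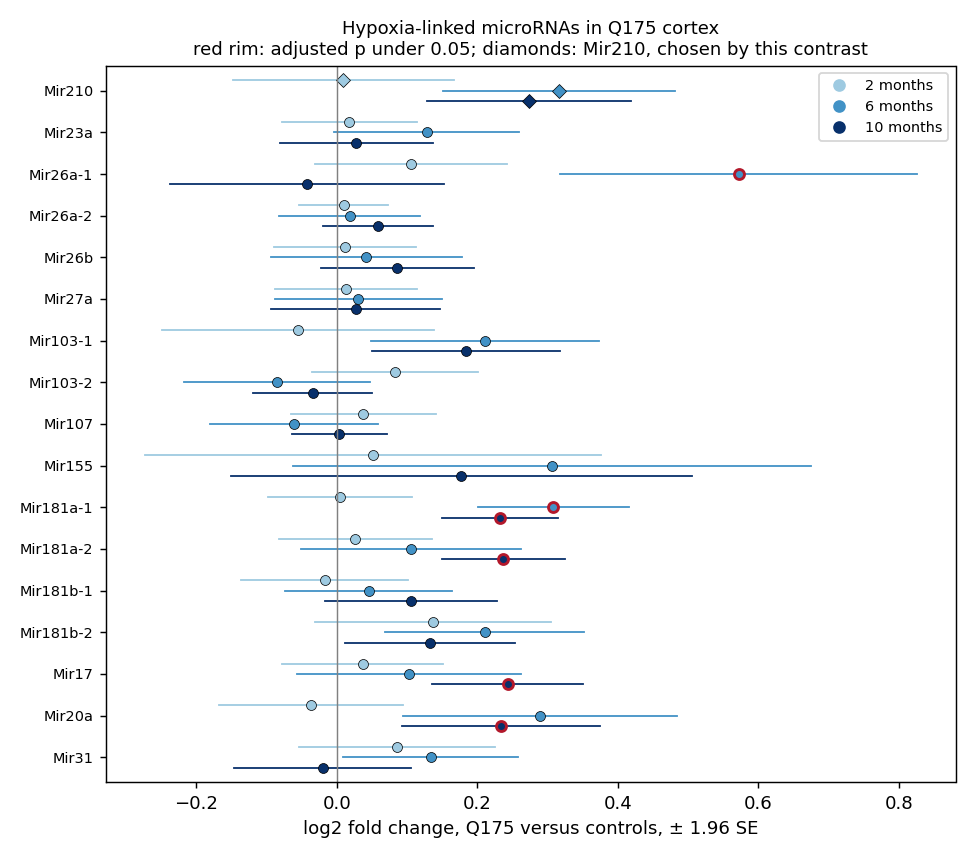
Log2 fold change in Q175 against controls (horizontal axis, with 95% intervals) of Mir210 and of 16 listed hypoxia-linked microRNAs (vertical axis) at 2, 6 and 10 months (light to dark), leaving out Mir20b, Mir200b and Mir429, whose intervals were wide. Red rims mark Mir26a-1 and Mir181a-1 at 6 months and Mir181a-1, Mir181a-2, Mir17 and Mir20a at 10 months, and the points at 2 months lie between -0.06 and 0.14.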

How the data were processed

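Small RNA of mouse cortex was sequenced as clipped single-end reads, which the authors aligned to mm10 with STAR. The submitters' processing notes also list CASAVA 1.8.2. The deposited table holds estimated counts per Ensembl transcript, not normalized and not all whole. The study's methods name a per-gene counter. A second deposited table, in FPKM, was not used. Here the counts were rounded, and transcripts were named through GENCODE vM21. Each comparison was fitted with edgeR 4.0.16 in R 4.3.3 (TMM, robust quasi-likelihood F test) on its own libraries, over microRNAs of the study's list with at least 1 count, library size being the total over all transcripts. Sex and, at 6 months, library code were covariates. The false discovery rate was 0.05 by the Benjamini-Hochberg method. DESeq2 1.42.0 was an alternative. Intervals are normal 95% ones from the fitted standard error. Counts were also simulated for Q140 against controls at 10 months (327 microRNAs). Among microRNAs of at least 10 CPM, 67 were given a log2 change of 0.3 and 72 one of 1. Of the changes of 0.3, 77.6% were recovered. So many planted changes make the adjusted threshold laxer than in the real comparison, where 0% passed. The share recovered therefore does not give the power for Mir210.

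Mir210 was always named. Besides it, the 3 microRNAs of highest and the 2 of lowest correlation with it over group means were named, those of the hypoxia list that passed in a Q175 comparison, and the member of highest mean CPM in each part of that list. Others were named after their values were seen. Mir210, the lists and the tests were chosen with earlier results of these data known. By the study's methods a litter gave at most 1 animal of each sex and genotype, so litters may be shared between sexes and between Q20 and WT. The sources used here do not say what a replicate number marks.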

Additional observations from a re-analysis of the deposited data

How the results depend on the processing

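Besides the fits of the report, other scaling, DESeq2, stricter or no filters, Q20 as the only controls, lane as a covariate and, at 6 months, other handling of library code and WT were tried. In the comparisons with a test, Mir210 stayed on its side of the threshold in all of them but 1. The Q175 contrasts at 6 and 10 months have no test, so only their values are given. With the 6-month WT libraries included, the 6-month slope without Q175 was 0.43 per 100 CAG and passed (adjusted p 0.000547, range over all alternatives 0.000547 to 0.983), Q92 at 6 months was 0.39 in place of -0.02, and Q175 at 6 months 0.69. With Q20 as the only controls at 2 months, Q175 was at -0.079 and the slope over all lines at -0.010, and Q80, Q111 and Q140 were at 0.06, 0.13 and 0.03 and the slope without Q175 at 0.04, in place of 0.14, 0.21, 0.11 and 0.10. Q20 against WT at 10 months, -0.01 in the report, was 0.016 with library size alone, 0.00021 by DESeq2, 0.011 over all transcripts and 0.069 with lane. Male against female at 6 months was -0.021 in LB libraries alone. Among hypoxia-linked microRNAs at 6 months, 1 in place of 2 passed with RLE scaling and 1 without the deepest Q175 library, Mir181a-1 in both. The cause of these changes was not tested. At 2 and 10 months the Q175 value ranged from -0.08 to 0.06 and from 0.25 to 0.30 over these alternatives, and the 10 against 2 month changes passed in each. DESeq2 called 9 microRNAs for Q92 at 2 months, 5 for Q140 and 3 for Q92 at 6 months, and 2 for Q80 at 2 months, where edgeR called 0, 0, 1 and 0. It called 1 where edgeR called 0 for Q140 at 2 months, Q111 and Q140 at 10 months, the 6-month slope without Q175 and sex at 6 months.

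A replicate block changed no call in the tested comparisons that it could be added to, with Q140 at 10 months at 0.14 (adjusted p 0.565) and Q175 at 2 months at 0.01. In the Q175 contrasts without a test it gave 0.24 in place of 0.32 at 6 months and 0.27 in place of 0.27 at 10 months. Same-numbered libraries deviated together (every correlation over 0.1) in 1 of 57 pairs of groups, Q80 and Q92 at 2 months, which were not compared. Over these pairs of groups, in which a library is counted more than once, 63 of 444 best correlations were with the own number. The numbers were therefore not taken as pairs.

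The Q175 contrasts rest on the choice of the gene, the 6-month one also on lanes that Q20 did not share. Counts of 88 to 1191 reads limit the precision.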
